A study of Mus musculus with 8 samples.

Results

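The genes described here are 10 genes of the p53 pathway and of its cell death branch, namely Trp53, Cdkn1a, Mdm2, Phlda3, Ccng1, Bax, Bbc3, Pmaip1, Sesn2 and Perp. They were taken by symbol, as every array probe whose annotation gives 1 of these symbols and no other. This gave 14 probes of 45037, for 8 of the 18193 genes with a probe of their own. Trp53 and Bax have no such probe in the annotation used and were not analysed here.

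Expression was measured on 8 arrays, 1 for each mammary tumour sample of female transgenic mice, known as MMTV-PyMT and listed under the name FVB/N-Tg(MMTV-PyVT)634Mul/J. In these mice the mouse mammary tumour virus promoter drives the polyoma middle T antigen in the mammary epithelium, and the host keeps its own stroma, vessels and immune cells. The SKI606 group held 4 samples from animals that received SKI-606 orally at 100 mg/kg (bosutinib, which blocks the tyrosine kinases Src and Abl), and the Vehicle group 4 samples of vehicle-treated mice. All 8 carry the transgene. The labels state neither the ages, nor how long the drug was given, nor what the vehicle was. By its title, the study asked how the drug bears on tumour differentiation. The extraction protocol speaks of RNA of single mice but lists no animals, so the p-values measure the spread between these samples, part of which may be technical.

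The p53 protein is a transcription factor that is stabilised after DNA damage and other stress. It switches on genes that stop the cell cycle, repair DNA or start mitochondrial apoptosis, and it switches on Mdm2, whose product marks p53 itself for degradation. In mammary epithelium loss of p53 is a common step in tumour formation.

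p53 binds DNA as a tetramer, at pairs of decamer half-sites. Promoter windows from RefSeq (GRCm38.p6) ran from 250 bases before to 50 bases after a transcription start. They were matched for 6 of the 8 measured genes, with 9 windows in all. Perp had no window, and Pmaip1 was not searched. The p53 response element consensus was searched as 2 half-sites of 10 bases side by side, with the central C and G of each kept and at most 1 other base off the consensus. The consensus reads the same on both strands. This definition was set after the letters of these windows had been seen. It was found in 22 of 32851 windows of all genes (0.067%) and in 2 of the 9 windows here, 1 of the 2 of Cdkn1a and the window of Ccng1. A single exact half-site, which lies in 8.36% of all windows, was found in these 2 windows and in that of Mdm2. The 3 windows with a match are shown because they belong to the arrest gene with the widest difference between the groups, to a target that did not share it, and to the feedback gene. Capitals mark the response element in Cdkn1a and Ccng1 and the half-site in Mdm2.
Cdkn1a, chr17:29090729-29091028, plus strand: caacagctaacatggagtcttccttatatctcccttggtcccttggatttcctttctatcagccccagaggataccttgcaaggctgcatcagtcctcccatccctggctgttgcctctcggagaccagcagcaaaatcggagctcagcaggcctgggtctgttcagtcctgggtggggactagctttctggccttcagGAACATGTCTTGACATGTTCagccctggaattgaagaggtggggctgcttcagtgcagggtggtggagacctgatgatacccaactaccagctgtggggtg
Ccng1, chr11:40755237-40755536, minus strand: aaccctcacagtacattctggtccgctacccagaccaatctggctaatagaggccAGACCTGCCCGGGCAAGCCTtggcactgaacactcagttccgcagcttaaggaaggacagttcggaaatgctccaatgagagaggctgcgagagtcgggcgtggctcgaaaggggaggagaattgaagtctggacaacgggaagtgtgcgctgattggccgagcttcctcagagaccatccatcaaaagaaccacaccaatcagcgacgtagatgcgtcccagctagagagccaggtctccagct
Mdm2, chr10:117710709-117711008, minus strand: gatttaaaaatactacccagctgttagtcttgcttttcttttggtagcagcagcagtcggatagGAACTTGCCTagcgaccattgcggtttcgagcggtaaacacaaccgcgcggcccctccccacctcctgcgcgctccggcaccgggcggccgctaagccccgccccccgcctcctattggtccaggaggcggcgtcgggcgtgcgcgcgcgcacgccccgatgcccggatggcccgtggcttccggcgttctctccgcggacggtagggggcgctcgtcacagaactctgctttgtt
The marked run begins 51 bases before the start of the longer Cdkn1a transcript, 195 bases before that of Ccng1 and 186 bases before that of Mdm2. The p53-responsive promoter of Mdm2 is known to lie in its first intron, which this window does not cover. A match describes letters only, and binding was not measured.

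Signals are given in array units after quantile normalisation, and fold changes as log2 fold changes, SKI606 minus Vehicle, ± SE (n = 4 per group). Because 16 was added to every signal before log2 was taken, the changes of dim probes are understated. On this scale the tumours of SKI606 mice showed no shared shift of the p53 targets. Dividing each array by its median moved further probes above 0, whereas leaving out scaling between arrays did not. Phlda3 and the brighter probe of Cdkn1a had the widest differences, at 0.81 ± 0.31 and 0.93 ± 0.47. In both, SKI606 samples 1, 3 and 4 lay above every Vehicle sample and SKI606 sample 2 did not. Mdm2 and Bbc3 had differences near 0, and Ccng1 was at its lowest in the tumour where Cdkn1a was at its highest. The 3 highest Perp signals were in the 3 tumours with the highest squamous keratinization signals, 2 of them SKI606 and 1 Vehicle.

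Of the 14 probes, 7 had a log2 fold change above 0 and 7 below, between -0.29 and 0.93, with a median of 0.003 against -0.02 over all probes. limma's adjusted p was under 0.05 for 0 of 14 probes and for 0 of the 45037 on the array (0%), and lay between 0.571 and 0.968 for the 14. Before adjustment, 1 of 14 had a p under 0.05 on the higher side, Phlda3, and 0 on the lower side. On the array 4.59% of probes were at this level on the higher side and 3.79% on the lower side. The groups overlapped in all 14 probes, whereas SKI606 lay wholly above Vehicle in 1.83% of all probes and wholly below in 1.86%.

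**Figure D1:**
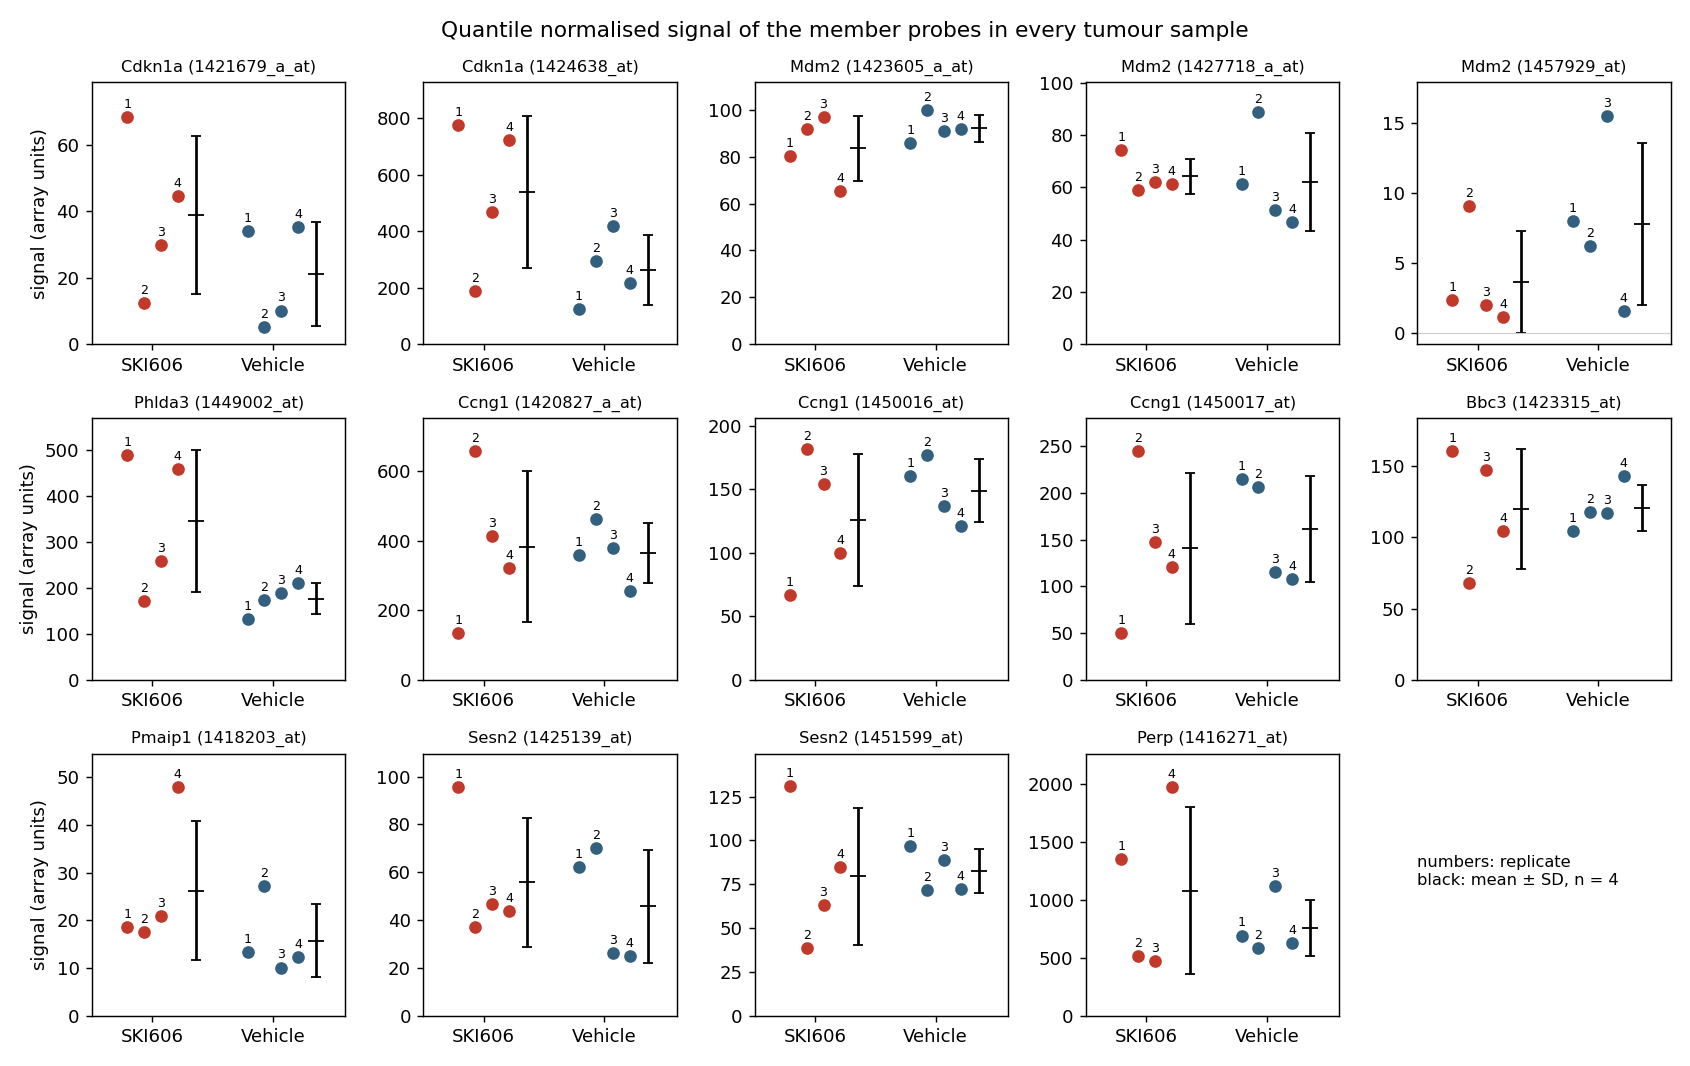
Quantile normalised signal (array units, linear axes that differ between panels) of the 14 probes in each of the 4 SKI606 and 4 Vehicle samples, numbered by replicate, with mean ± SD in black. SKI606 samples 1 and 4 are the highest of the 8 for the brighter Cdkn1a probe, Phlda3 and Perp, and the groups overlap in every panel.

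Several facts about the tumours bear on every gene below. SKI606 samples 1 and 4 stood apart on the first principal component, and Vehicle sample 3 on the second. The summed signal of 23 squamous keratinization genes was high in these 3 samples, at 24093 and 27447 in the SKI606 samples and 16805 in the Vehicle sample, against 856 to 2751 in the other 5. No squamous gene was below 10 in all 8 samples. The 24 measured proliferation genes summed to between 5331 and 12856 in SKI606 and between 11637 and 14639 in Vehicle samples, with SKI606 samples 1 and 4 lowest. Fibroblast genes summed to 20545 to 38709 in SKI606 and 15665 to 19600 in Vehicle samples, and T and NK cell genes to 270 to 363 and 121 to 242, without overlap. Macrophage genes summed to 9848 to 23659 in SKI606 and 6202 to 12497 in Vehicle samples, endothelial genes to 1092 to 2349 and 722 to 1243, and basal genes to 2049 to 12332 and 2363 to 5851. The luminal epithelial genes that define the labelled tissue summed to 30424 to 36467 and 31532 to 35906. Adipocyte genes summed to 688 to 10529 in SKI606 and 678 to 5399 in Vehicle samples, and skeletal muscle genes to 124 to 15594 and 131 to 22451. The 3' to 5' ratio of the Actb control lay between 1.66 and 3.35 in SKI606 and between 1.77 and 3.83 in Vehicle samples. In such bulk tissue, fewer cells of a type and less RNA per cell cannot be told apart.

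Mdm2 encodes the ubiquitin ligase that holds p53 down, and as a p53 target it is a common readout of p53 activity. Its brightest probe (1423605_a_at) had signals of 80.2, 91.9, 97.0 and 65.6 in SKI606 samples 1 to 4, against 85.8, 100.0, 91.1 and 92.1 in Vehicle samples 1 to 4. SKI606 samples 1 and 4, the 2 with the highest Cdkn1a, had the 2 lowest values of this probe. The log2 fold change was -0.13 ± 0.14 (95% interval -0.45 to 0.19, limma adjusted p = 0.839), and 0.12 when each array was divided by its median. The probe 1427718_a_at lay between 58.9 and 74.1 in SKI606 and between 46.8 and 88.8 in Vehicle samples, with a log2 fold change of 0.06 ± 0.18. It did not share the order of the brightest probe, as SKI606 sample 1 was the highest of its group at 74.1 and SKI606 sample 4 was at 61.4. The third probe, 1457929_at, was dim, at most 9.1 in SKI606 and 15.5 in Vehicle samples, and stood at -0.26 ± 0.20.

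Cdkn1a encodes p21, the cyclin-dependent kinase inhibitor through which p53 stops the cell cycle. Its brighter probe (1424638_at) had signals of 776.8, 187.0, 466.8 and 723.8 in SKI606 samples 1 to 4, against 122.9, 293.1, 416.9 and 217.0 in Vehicle samples 1 to 4. SKI606 samples 1, 3 and 4 lay above all Vehicle samples, and SKI606 sample 2 lay below 3 of the 4. The means were 539 ± 271 in SKI606 and 262 ± 124 in Vehicle samples (SD, n = 4 each), and the log2 fold change of 0.93 ± 0.47 (95% interval -0.11 to 1.98) had an adjusted p of 0.626 in limma. The dimmer probe (1421679_a_at) had 68.6, 12.4, 29.8 and 44.6 in SKI606 samples, against 34.2, 5.2, 10.1 and 35.2 in Vehicle samples. SKI606 samples 1 and 4 were again highest, while SKI606 sample 3 lay within the Vehicle range, and the log2 fold change was 0.55 ± 0.39, which was 0.31 without SKI606 sample 1 and 0.32 without Vehicle sample 2. Without SKI606 samples 1 and 4 and Vehicle sample 3, the brighter probe stood at 0.54 ± 0.47 and the dimmer at -0.08 ± 0.45. That fit holds only SKI606 samples 2 and 3 and Vehicle samples 1, 2 and 4. SKI606 samples 1 and 4 were also the samples with the lowest proliferation signals and the highest squamous signals, and the part of either in the Cdkn1a values was not tested.

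Ccng1 encodes cyclin G1, a p53 target that recruits a phosphatase to Mdm2. Its brightest probe (1420827_a_at) had signals of 135.1, 658.2, 413.6 and 323.0 in SKI606 samples 1 to 4, against 358.0, 463.5, 380.1 and 255.5 in Vehicle samples 1 to 4. The SKI606 samples held both the lowest and the highest value of the 8. The same 2 samples, SKI606 samples 1 and 2, were lowest and highest in the probes 1450016_at, at 66.5 and 181.5, and 1450017_at, at 49.9 and 244.6. The log2 fold changes of the 3 probes were -0.09 ± 0.40, -0.29 ± 0.27 and -0.28 ± 0.39, each smaller than or close to its SE. That of the brightest probe was 0.15 with array median scaling and 0.31 without SKI606 sample 1. SKI606 sample 1, which had the lowest Ccng1, had the highest Cdkn1a of the 8 samples.

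Phlda3 encodes a small pleckstrin homology protein that competes with Akt for membrane lipids and so restrains Akt. It had signals of 489.1, 170.2, 259.0 and 458.0 in SKI606 samples 1 to 4, against 132.8, 172.4, 189.6 and 210.9 in Vehicle samples 1 to 4. As with Cdkn1a, SKI606 samples 1, 3 and 4 were above every Vehicle sample, and sample 2 was within the Vehicle range. The means were 344 ± 154 in SKI606 and 176 ± 33.1 in Vehicle samples (SD, n = 4 each). The log2 fold change was 0.81 ± 0.31 (95% interval 0.11 to 1.51), with an unadjusted p of 0.0278 and an adjusted p of 0.571 in limma, which put it at rank 2190 of all probes by p. Without SKI606 samples 1 and 4 and Vehicle sample 3 it stood at 0.29 ± 0.27. Without SKI606 sample 1 or 4 alone the value was 0.61 or 0.64, and without SKI606 sample 2 it was 1.09, with adjusted p-values of 0.827, 0.924 and 0.344.

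**Figure D2:**
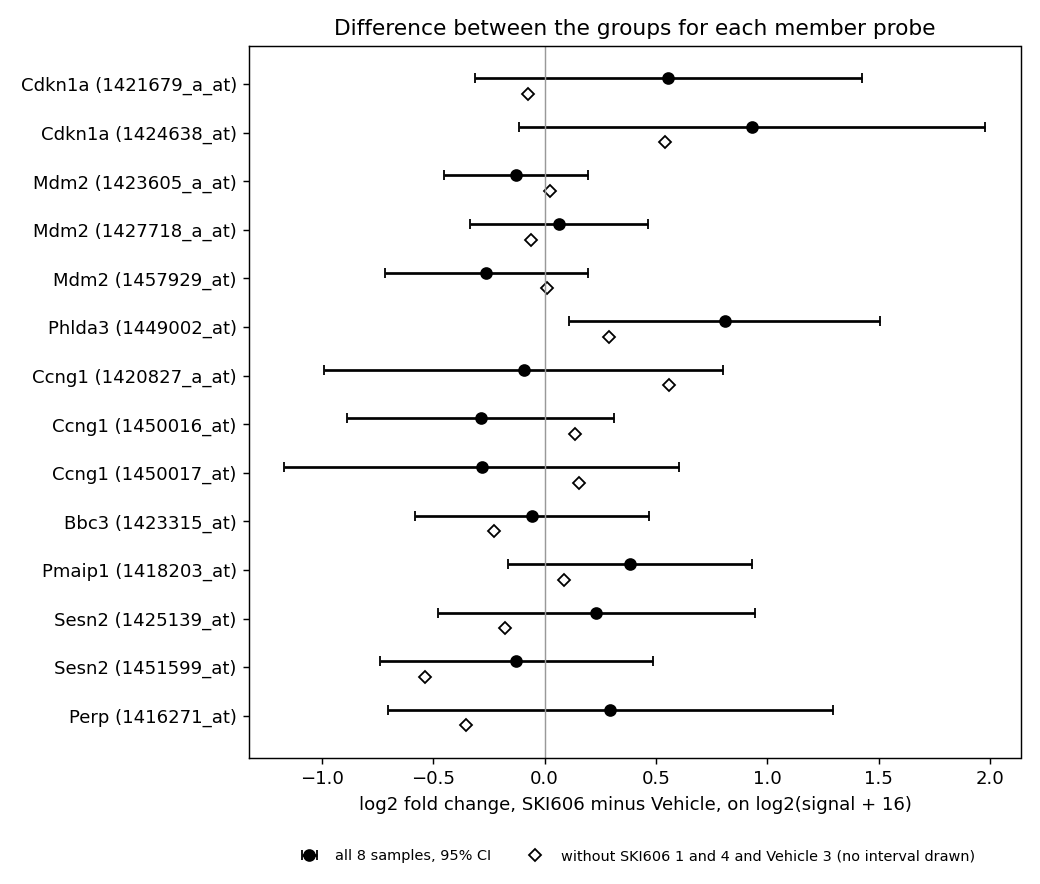
Log2 fold change, SKI606 minus Vehicle, of the 14 probes with 95% intervals from limma over all 8 samples (circles) and the value without SKI606 samples 1 and 4 and Vehicle sample 3 (diamonds, no interval drawn). Only the interval of Phlda3 leaves out 0 before adjustment, and the diamond of Perp is on the other side of 0 at -0.35.

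Among the death effectors, Bbc3 and Pmaip1 encode the BH3-only proteins Puma and Noxa, which free the apoptotic pore proteins at mitochondria. Bbc3 had signals of 160.4, 67.6, 147.1 and 104.1 in SKI606 samples 1 to 4, against 104.1, 118.0, 116.9 and 142.6 in Vehicle samples 1 to 4. SKI606 samples 1 and 3 lay above the Vehicle range and SKI606 sample 2 below it. The log2 fold change was -0.06 ± 0.23 (95% interval -0.58 to 0.47), and 0.20 with array median scaling. Pmaip1 was dim, with 18.6, 17.5, 20.8 and 47.9 in SKI606 samples, against 13.4, 27.1, 10.1 and 12.4 in Vehicle samples. SKI606 sample 4 alone lay above the Vehicle range, and the log2 fold change of 0.38 ± 0.24 (adjusted p = 0.699 in limma) was 0.17 without that sample.

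Perp encodes a membrane protein that was found as a p53 target in apoptosis and is also a desmosome component of stratified epithelia, where p63 controls it. Its signals were 1353.4, 512.2, 475.6 and 1971.4 in SKI606 samples 1 to 4, against 691.4, 585.7, 1118.8 and 628.8 in Vehicle samples 1 to 4. The 3 highest samples, SKI606 samples 4 and 1 and Vehicle sample 3, were the 3 with the highest squamous sums, in the same order. The other 5 samples lay between 475.6 and 691.4, and SKI606 samples 2 and 3 were the 2 lowest of them. The log2 fold change was 0.30 ± 0.45 over all samples (adjusted p = 0.888 in limma) and -0.35 ± 0.17 without these 3 samples. The basal cell genes were also highest in these 3 samples, at 11844 and 12332 in SKI606 samples 1 and 4 and 5851 in Vehicle sample 3, against 2049 to 3295 in the other 5. Their part in the Perp values was not tested.

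**Figure D3:**
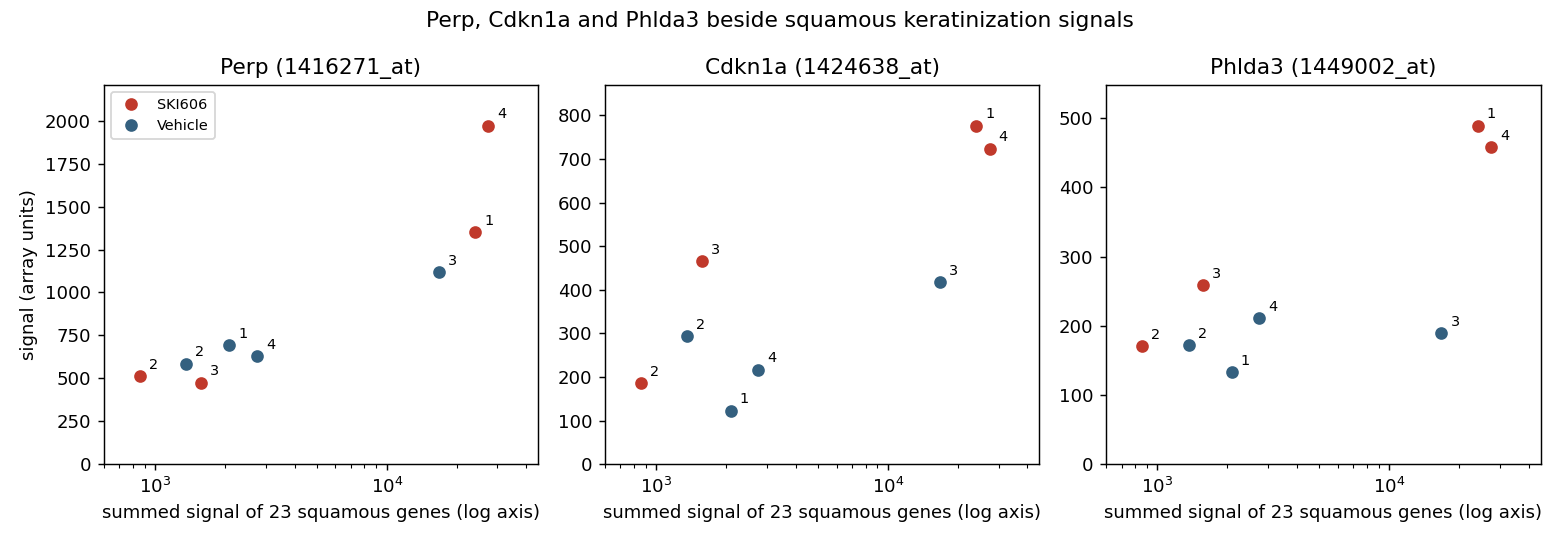
Signal (array units) of Perp, the brighter Cdkn1a probe and Phlda3 against the summed signal of 23 squamous keratinization genes (log axis) in the 4 SKI606 and 4 Vehicle samples, numbered by replicate. Perp is at 1118.8 or more in the 3 samples of high squamous sum and at most 691.4 in the other 5, while Phlda3 in Vehicle sample 3, at 189.6, is within the range of the other Vehicle samples.

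Vehicle sample 3 had a squamous sum of 16805 without the drug, the highest brighter-probe Cdkn1a (416.9) and Perp (1118.8) of the Vehicle group, and a Phlda3 signal of 189.6 between those of Vehicle samples 2 and 4. On the dimmer Cdkn1a probe it was not the highest, at 10.1 against 34.2 and 35.2 in Vehicle samples 1 and 4. Its proliferation sum of 14639 was the highest of the 8 samples, whereas SKI606 samples 1 and 4 had 5331 and 5360.

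Sesn2 encodes sestrin 2, a stress-induced inhibitor of mTORC1 that p53 and other stress factors switch on. The brighter probe (1451599_at) had signals of 131.1, 38.8, 63.2 and 85.0 in SKI606 samples 1 to 4, against 97.0, 71.6, 88.9 and 72.1 in Vehicle samples 1 to 4. The probe 1425139_at had 95.8, 36.9, 46.6 and 43.9 in SKI606 samples, against 62.2, 70.0, 26.2 and 24.9 in Vehicle samples. SKI606 sample 1 was highest on both probes, and the rest of the order differed between them. The log2 fold changes were -0.13 ± 0.27 and 0.23 ± 0.32, and the first was 0.11 with array median scaling.

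The members varied more among the SKI606 tumours than among the Vehicle tumours. On the log2 scale the SD was larger in SKI606 than in Vehicle in 11 of 14 probes, against 50.4% of all probes. The median SD of the 14 probes was 0.58 in SKI606 and 0.33 in Vehicle samples, while over all probes it was 0.27 in both groups. The 14 probes share 8 genes and the same arrays, so this is a description without a test. The difference came with opposite orders of the samples, as SKI606 sample 1 was the highest of the 8 for Cdkn1a, Phlda3, Bbc3 and Sesn2 on their brightest probes and the lowest for Ccng1. SKI606 sample 2 was the lowest of the 8 for Bbc3 and Sesn2 and the highest for Ccng1.

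Among 459 genes that varied over the 8 samples at least as much as Cdkn1a, the closest patterns were those of Krtap12-1, Cdkn2b and Slc6a2. Likeness was the root mean square distance between log2 values centred on each gene's mean, which was 0.23, 0.40 and 0.42. Krtap12-1 encodes a hair keratin-associated protein and had 169.1, 27.6, 65.1 and 183.4 in SKI606 samples 1 to 4, against 10.2, 53.5, 100.9 and 28.5 in Vehicle samples 1 to 4. Cdkn2b encodes the kinase inhibitor p15 and had 195.4, 54.6, 102.6 and 242.8 in SKI606 samples, against 25.6, 49.9, 176.1 and 105.1 in Vehicle samples. Slc6a2 encodes the noradrenaline transporter and had 189.8, 35.9, 63.2 and 253.8 in SKI606 samples, against 15.5, 34.8, 48.9 and 50.4 in Vehicle samples. In all 3 genes, as on the brighter Cdkn1a probe, SKI606 samples 1 and 4 were the highest of the 8. The genes were chosen by likeness to this probe over the same samples, so the shared order is no separate result. Vehicle sample 3 was the highest of its group in Krtap12-1 and Cdkn2b but not in Slc6a2.

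The other genes of the pathway were described by lists, with 1 probe for each gene. limma's adjusted p was under 0.05 for 0 of 18193 genes (0%). Before adjustment, 5.76% of genes were higher and 3.97% lower with a p under 0.05, and the median log2 fold change of all genes was -0.02. Without SKI606 samples 1 and 4 and Vehicle sample 3, the 6 lists of the pathway held at most 1 gene each at an unadjusted p under 0.05. The number fell over the whole array too, as 338 of all 18193 genes were higher and 312 lower at this level in that smaller fit. It keeps only SKI606 samples 2 and 3 and Vehicle samples 1, 2 and 4. The part of the smaller sample number in this fall was not tested. With array median scaling the median of all genes was 0.10, and those of all 6 lists were above 0.

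Of 24 regulators and partners of p53, 5 had log2 fold changes above 0 and 19 below 0 (median -0.11, which turned to 0.15 with array median scaling and 0.16 with the deposited ratios). At an unadjusted p under 0.05 there were 0 higher and 1 lower. This was the checkpoint kinase gene Chek2, with 113.5, 205.2, 180.5 and 101.9 in SKI606 samples 1 to 4, against 207.5 to 214.4 in Vehicle samples, and a log2 fold change of -0.50 ± 0.21. All 4 SKI606 samples lay below all 4 Vehicle samples, as in 1.86% of all probes, and SKI606 samples 1 and 4, of low proliferation sum, were the lowest. Its value was -0.13 without the 3 samples of high squamous sum and -0.24 with array median scaling. Atr, a kinase that senses stalled replication, stood at -0.52 ± 0.27, and at -0.28 as the mean of its probes. Cdkn2a, whose Arf product blocks Mdm2, was dim, at 27.5 ± 12.4 in SKI606 and 13.8 ± 6.0 in Vehicle samples (SD, n = 4 each), and stood at 0.52 ± 0.24, or 0.19 without the 3 samples.

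Of 28 other targets for arrest, repair and metabolism, 18 had log2 fold changes above 0 and 10 below 0 (median 0.08, and 0.34 with array median scaling), and 2 were higher and 0 lower at an unadjusted p under 0.05. Pltp, a phospholipid transfer protein gene, stood at 0.86 ± 0.29, and Ak1, an adenylate kinase gene, at 1.07 ± 0.43. Ak1 had 722.1, 273.1, 197.5 and 769.4 in SKI606 samples 1 to 4, against 290.4, 156.8, 143.9 and 201.9 in Vehicle samples 1 to 4, so SKI606 samples 1 and 4 again stood above the rest. Without the 3 samples of high squamous sum, Ak1 was at 0.14 and Pltp at 0.35, and as the mean of its probes Ak1 was at 0.49. The ribosomal protein gene Rps27l, a p53 target in mouse and human cells, stood at -0.36 ± 0.20, and at -0.06 without the 3 samples.

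Of 15 other targets of the death branch, 10 had log2 fold changes above 0 and 5 below 0 (median 0.20, and 0.38 with array median scaling), and 2 were higher and 0 lower at an unadjusted p under 0.05. Dram1, which links p53 to autophagy, had 398.6, 191.4, 74.4 and 607.7 in SKI606 samples 1 to 4, against 79.6, 60.0, 80.9 and 103.1 in Vehicle samples 1 to 4. SKI606 sample 3 lay within the Vehicle range, and the other SKI606 samples lay above it. The log2 fold change of Dram1 was 1.46 ± 0.51 over all samples, with an adjusted p of 0.479 in limma, and 0.52 without the 3 samples of high squamous sum. Fas, the death receptor, was dim, with 36.4, 37.8, 41.1 and 48.9 in SKI606 samples, against 28.5, 42.2, 13.4 and 12.4 in Vehicle samples. It stood at 0.57 ± 0.24, and Tnfrsf21, another death receptor gene, at 0.32 ± 0.20, or 0.13 as the mean of its probes. Immune cells also express Dram1 and Fas. The sums of T and NK cell genes given above were higher in all 4 SKI606 samples, those of macrophage genes overlapped between the groups, and the part of either in these values was not tested.

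Of 15 BCL2 family genes, 7 had log2 fold changes above 0 and 8 below 0 (median -0.001, which turned to 0.26 with array median scaling), and 1 was higher and 0 lower at an unadjusted p under 0.05. Hrk, a BH3-only gene, stood at 0.46 ± 0.19 from dim signals of 19.7 ± 5.42 in SKI606 and 10.1 ± 5.05 in Vehicle samples (SD, n = 4 each). As the mean of its probes Hrk was at 0.25. Bok, a relative of Bax, stood at 0.48 ± 0.32, but at -0.009 without the 3 samples of high squamous sum, and the dim Bcl2l10 at -0.25 ± 0.16. Of 16 caspase, apoptosome and IAP genes, 4 had log2 fold changes above 0 and 12 below 0 (median -0.14, which turned to 0.08 with array median scaling, 0.10 with the deposited ratios and was -0.06 without the 3 samples), and 0 were higher and 2 lower at an unadjusted p under 0.05. Htra2, a mitochondrial protease that counters the caspase inhibitors, had 196.4, 167.2, 277.1 and 134.5 in SKI606 samples 1 to 4, against 297.0, 283.5, 236.8 and 346.8 in Vehicle samples 1 to 4. It stood at -0.58 ± 0.22, with overlap in SKI606 sample 3 alone, and at -0.32 with array median scaling. Dffb, the caspase-activated nuclease gene, stood at -0.51 ± 0.18, and Aifm1, a mitochondrial death factor gene, at -0.43 ± 0.20. Dffb was at -0.15 as the mean of its probes and at -0.30 with array median scaling, and Aifm1 at -0.16 with that scaling and -0.15 without the 3 samples. Of 13 death receptor and adaptor genes, 10 had log2 fold changes above 0 and 3 below 0 (median 0.19, and 0.08 without the 3 samples), and 1, Fas, was higher at an unadjusted p under 0.05 and 0 lower. In that list Tnf stood at 0.64 ± 0.34 and the necroptosis kinase gene Ripk3 at 0.54 ± 0.36, and both turned without the 3 samples, to -0.09 and -0.06. Of 24 proliferation genes, 23 lay below 0 and 11 of these at an unadjusted p under 0.05, with a median of -0.62, which was -0.38 with array median scaling and -0.11 without the 3 samples of high squamous sum. Ccnb2, Ccna2 and Mcm6 stood at -0.80 ± 0.25, -0.83 ± 0.29 and -1.05 ± 0.38, and without the 3 samples at -0.49, -0.21 and -0.35.

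**Figure D4:**
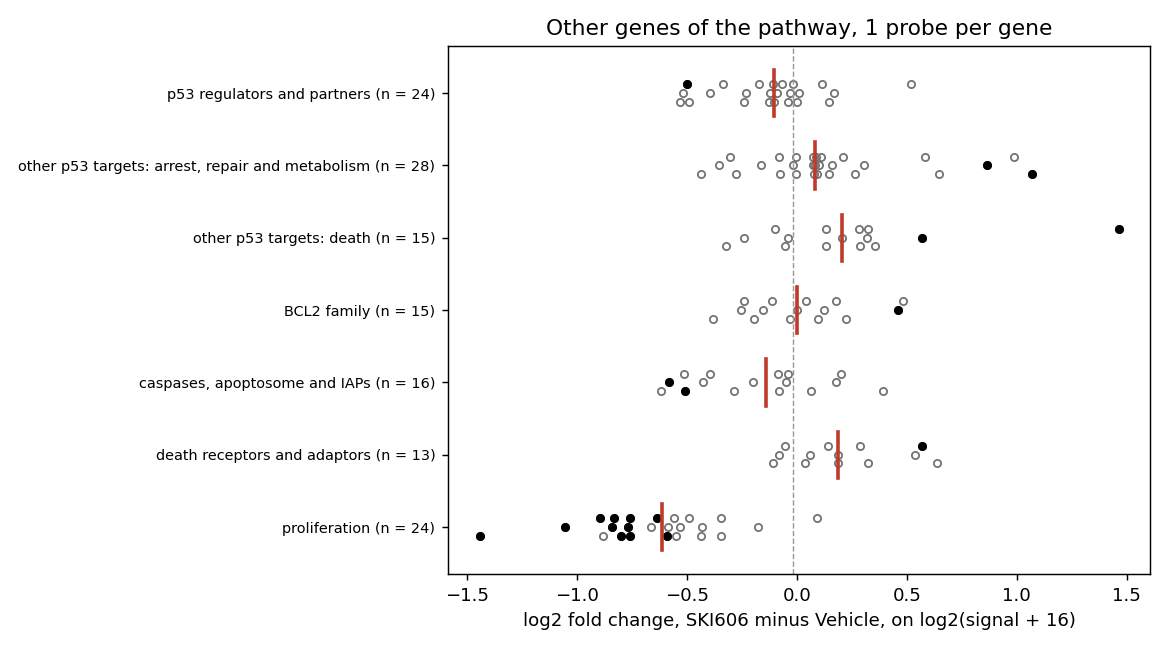
Log2 fold change, SKI606 minus Vehicle, of the measured genes of 6 pathway lists and of 24 proliferation genes, 1 point a gene, with filled points at an unadjusted p under 0.05, a red bar at each list's median and a dashed line at the median of all genes (-0.02). The medians of the pathway lists lie between -0.14 and 0.20, and that of the proliferation genes at -0.62, while with array median scaling they lie between 0.08 and 0.38 and at -0.38.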

How the data were processed

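The members and gene lists were chosen with earlier results of these data known. The deposited values were linear ratios. Neither the labels nor the file header say how the authors computed them. From the values themselves, each ratio is a signal divided by its array median and by the median of its probe (in 26196 of 45101 probes) or by a constant. Signals were recovered as the smallest whole numbers giving these ratios (tolerance 0.002). They gave back 100.0% of probes, and on 5000 simulated probes 99.86% were recovered exactly, so a few levels can be off by a common factor. The recovered array medians were 15 to 16 in SKI606 and 15 to 23 in Vehicle samples. The trimmed means of the arrays, which leave out the extreme signals, lay between 99.82 and 99.84.

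Signals were quantile normalised, 16 was added and log2 was taken. limma 3.58.1 (lmFit and eBayes, R 4.3.3) was fitted without a block over all 45037 probes that are no controls, with Benjamini-Hochberg adjustment at 0.05, and again over the brightest probe of each of 18193 genes. The fit over all probes was tried on simulated probes with independent noise. These lack the differences between single tumours seen here, so the trial does not cover them. Probes were named by GEO's platform table, with 1 symbol for 34945 of them, several for 932 and none for 9160. Of 270 entries in 16 gene lists, 250 were measured. Named were all member probes, up to 3 genes of smallest p in each pathway list and the proliferation list, and the 3 genes closest to Cdkn1a. Detection calls, scan dates and batches were not used here. The number of arrays limits the precision. Alternatives were other scalings, pseudocounts of 4 and 64, a filter on dim probes, a variance trend, array weights, the replicate number as a block, and samples left out.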

Additional observations from a re-analysis of the deposited data

Results flagged for a closer look

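In 2 of the 28 sets of 4 values (14 probes in 2 groups), 1 sample lay far from the other 3 by Dixon's test on the log2 scale, and chance gives about 1 in 20. Pmaip1 was at 47.9 in SKI606 sample 4, with a gap of 0.857 of the range of its group. The dim Mdm2 probe 1457929_at was at 9.1 in SKI606 sample 2, with a gap of 0.832 of the range, and the other SKI606 samples were at most 2.4.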

How the results depend on the processing

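Over the 18 alternative fits, limma's adjusted p was under 0.05 for 0 probes on the array, 0 member probes and 0 list genes. Before adjustment, a p under 0.05 was found for 1786 to 4922 probes on the array and 0 to 3 member probes. Of 257 member values, 229 kept their direction, among them all for Phlda3, Pmaip1 and the brighter Cdkn1a probe, and 28 turned, where the cause was not tested. Array median scaling and the log2 of the deposited ratios, which both divide each array by its median, moved the median of all genes up by 0.119 and 0.183. There Bbc3 was 0.204 and 0.225, Ccng1 (1420827_a_at) 0.153 and 0.152, Mdm2 (1423605_a_at) 0.122 and 0.147, and Sesn2 (1451599_at) 0.108 and 0.111. List medians moved there too: p53 regulators to 0.148 and 0.160, caspases to 0.078 and 0.099, BCL2 genes to 0.257 and 0.299, arrest targets to 0.340 and 0.376, death targets to 0.379 and 0.423, death receptors to 0.324 and 0.448, and proliferation to -0.381 and -0.466. The mean of its probes put Sesn2 at 0.053, and array weights put Mdm2 (1427718_a_at) at -0.006. Without SKI606 samples 1 and 4 and Vehicle sample 3, Ccng1 was 0.560, 0.134 and 0.153, Mdm2 0.026, -0.060 and 0.010, the dimmer Cdkn1a probe -0.076, Perp -0.351, Sesn2 (1425139_at) -0.177, Bok -0.009, Ripk3 -0.062 and Tnf -0.095. Leaving out 1 sample at a time gave -0.203 to 0.156 for Bbc3, 0.310 to 0.835 for the dimmer Cdkn1a probe, -0.411 to 0.308, -0.474 to -0.055 and -0.582 to 0.080 for Ccng1 (1420827_a_at, 1450016_at and 1450017_at), -0.031 to 0.215 for Mdm2 (1427718_a_at), -0.076 to 0.595 for Perp, and -0.002 to 0.419 and -0.365 to 0.111 for Sesn2 (1425139_at and 1451599_at). With the replicate number as a block, 0 probes were called. Deviations of same-numbered samples correlated at 0.021, 0.108, -0.15 and -0.106, so the numbers do not pair the samples. Dim probes (Pmaip1, Mdm2 1457929_at, Fas, Hrk) are near the floor, where signal limits the precision.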
